A study of Mus musculus with 26 samples.

Results

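The GIMAP genes (GTPases of the immunity-associated protein family) were followed through 26 RNA-seq libraries of mouse CD4+ T cells. Members were taken by gene symbol, as every row named Gimap1, Gimap3, Gimap4, Gimap5, Gimap6, Gimap7, Gimap8 or Gimap9 in the count tables, which gave 8 of 21761 genes in each table. All 8 passed the filter on low counts in every comparison. GIMAP proteins carry a guanine nucleotide-binding domain of their own class, sit on or near intracellular membranes, and are known above all for keeping lymphocytes alive: loss of several members in rodents leads to too few peripheral T cells. Their transcripts are abundant in resting T cells. The proteins switch between nucleotide-bound states and pair with each other through the G domain, and some act as scaffolds that do not hydrolyse GTP themselves.

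The study asked how TET enzymes, which oxidise 5-methylcytosine, and vitamin C, a cofactor that raises their activity, bear on regulatory T (Treg) cells. All mice were C57BL/6 and carried a Foxp3-eGFP reporter, which makes cells that express the Treg factor Foxp3 fluorescent, and all cells came from spleen and lymph nodes. At 5 to 6 weeks of age, reporter mice gave naive T cells sorted as CD4+eGFP-CD25- with a naive surface phenotype (n = 2). The same source gave Th0 cells, activated through CD3 and CD28 (n = 2), and induced Treg (iTreg) cells made with TGFβ (n = 2), TGFβ plus vitamin C (n = 2), TGFβ plus retinoic acid (n = 2), or TGFβ with both (n = 2). At 3 weeks of age, CD4+eGFP+ Treg cells were sorted directly from mice with Tet2fl/fl and Tet3fl/fl alleles, the reporter Foxp3-eGFP and the CD4-Cre transgene, called Tet2/3-deficient here (n = 4). The controls (n = 4) had Tet2fl/fl, Tet3fl/fl and Foxp3-eGFP without Cre. CD4-Cre acts in developing thymocytes of both the CD4 and the CD8 lineage, so the deletion was not limited to Treg cells. A second table holds cells of 12 to 14 week old reporter mice: TGFβ iTreg cells sorted as Foxp3+ on day 6 (n = 3), and cells that were Foxp3- when sorted on day 6 after anti-CD3/CD28 restimulation of TGFβ iTreg cells (n = 3). Nothing in the labels says that replicates came from separate animals, so p-values measure the spread between libraries, which may be technical.

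Counted reads per library ranged from 9647669 to 17672302. The labels were checked against defining genes. Cd3e, a T cell receptor subunit, lay between 232 and 384 FPKM in every group mean, where FPKM is the count scaled to exon length and to the library's total counted reads. Foxp3 averaged 6.66 FPKM in naive and 4.06 in Th0 cells, 140 to 240 in the 4 iTreg groups, 170 in control and 146 in Tet2/3-deficient Treg cells. In the second table it was 82.7 ± 5.11 (SD, n = 3) FPKM in day 6 iTreg cells and 3.89 ± 0.561 (SD, n = 3) in the restimulated Foxp3- cells. Of the deleted genes, Tet2 lay at 0.922 to 1.46 FPKM in control Treg libraries and at 1.11 to 1.53 in those with Cre (log2 fold change 0.02 ± 0.15 SE, adjusted p = 0.930), and Tet3 at 11.4 to 15.5 and 8.68 to 10.3 FPKM, in the same order (-0.52 ± 0.10, adjusted p = 0.00255). These counts cover whole genes and not the floxed exons alone, so they do not check the deletion. The NK cell gene Ncr1 was at 0 in every cultured library.

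Among the protein-coding genes of RefSeq, the 8 members lie side by side on chromosome 6, with no other such gene among them. Their order is Gimap8, Gimap9, Gimap4, Gimap6, Gimap7, Gimap1, Gimap5 and Gimap3. Gimap6 and Gimap3 lie on the minus strand and the other 6 on the plus strand. The 250 bases before the annotated start (RefSeq, GRCm38.p6) are shown for members picked from the results: Gimap7, Gimap4 and Gimap6. Gimap7 had the largest rise with retinoic acid, and Gimap4 was lower with vitamin C. Gimap6 fell strongly on activation, though less than Gimap8, whose sequence is not shown. Each sequence shown runs 5′ to 3′ on the gene's own strand, and capitals mark letters that match a searched motif on either strand. The windows are chr6:48718371-48718620 (plus strand) for Gimap7, chr6:48684328-48684577 (plus) for Gimap4 and chr6:48708245-48708494 (minus) for Gimap6.
Gimap7: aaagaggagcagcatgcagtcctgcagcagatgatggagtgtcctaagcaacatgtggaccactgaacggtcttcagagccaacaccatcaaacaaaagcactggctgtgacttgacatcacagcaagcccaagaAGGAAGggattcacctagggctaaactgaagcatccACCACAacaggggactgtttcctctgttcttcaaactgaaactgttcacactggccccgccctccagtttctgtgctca
Gimap4: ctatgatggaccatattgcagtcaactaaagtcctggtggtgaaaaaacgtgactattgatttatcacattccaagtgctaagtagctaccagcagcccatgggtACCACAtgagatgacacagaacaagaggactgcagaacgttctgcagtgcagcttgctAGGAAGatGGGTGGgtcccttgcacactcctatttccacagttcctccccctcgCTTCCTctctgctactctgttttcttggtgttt
Gimap6: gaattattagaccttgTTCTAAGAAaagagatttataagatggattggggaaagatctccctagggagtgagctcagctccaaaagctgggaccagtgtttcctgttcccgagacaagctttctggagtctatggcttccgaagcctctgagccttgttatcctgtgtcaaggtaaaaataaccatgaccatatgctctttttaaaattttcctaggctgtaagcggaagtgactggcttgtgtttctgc
In Gimap7, AGGAAG (a core of ETS factor sites) ends 110 bases before the start, and ACCACA, the reverse complement of the RUNX core TGTGGT, ends 74 bases before it. Gimap4 holds the same pair of motifs, with AGGAAG at 2 places on opposite strands, and the reverse complement of the KLF motif CCACCC. Gimap6 holds only the STAT motif TTCNNNGAA.

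All 8 members matched the promoter table, with 9 windows, since Gimap8 has a pair of starts whose windows overlap. AGGAAG was found in 7 of 8 members, all but Gimap6, and in 29.5% of 32851 windows of the same length before all annotated starts. CCACCC was in 5 of 8 members and 28.1% of windows, TGTGGT in 3 (Gimap1, Gimap4 and Gimap7) and 14%, and TTCNNNGAA in 2 (Gimap6 and Gimap8) and 7.02%. The FOXO motif GTAAACA was in Gimap3 alone and in 3.17% of windows, and the E-box CAGGTG in Gimap9 alone and in 17.2%. Neither the ETS variant CCGGAA (12% of windows) nor the AP-1 motif TGANTCA (6.75%) was found in a member. CpG dinucleotides are the substrate of the methylation that TET enzymes oxidise. In 8 of the 9 member windows there were 3 or fewer, against 37.8% of all windows, whose median was 6. The bound of 3 is the highest count among those 8 windows, and 2 of them are the overlapping windows of Gimap8. The shares are therefore a description and not a test. The exception, Gimap9, had 8.

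Gimap3 and Gimap5 are close copies, which bears on how far their counts can be told apart. Their coding sequences were 86.1% identical, where the next closest pair, Gimap7 and Gimap9, shared 64.5%. The longest stretch that Gimap3 and Gimap5 share without a mismatch is 140 bases, starting at coding base 175 of Gimap3 and 187 of Gimap5 (GENCODE transcripts of GRCm38):
Gimap3 and Gimap5: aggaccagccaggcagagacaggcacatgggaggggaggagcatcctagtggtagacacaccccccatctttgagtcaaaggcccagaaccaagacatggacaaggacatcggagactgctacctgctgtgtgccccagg
In all, 190 stretches of 50 bases occur in both transcripts, 9.06% of those of Gimap3 and 9.98% of those of Gimap5, and no other pair of members shares any. Reads from these stretches may have been split between both genes, so the levels of Gimap3 and Gimap5 are uncertain to that extent. GENCODE also lists an antisense gene over Gimap1 and a read-through transcript, Gm28053, over Gimap7, Gimap1 and Gimap5. Neither has a row in the count tables, and whether strand was used in counting is not given in the sources used here.

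Together the family took up between 0.148% and 0.357% of counted reads in the group means of the first table. Naive cells were highest at 0.357% ± 0.00473 (SD, n = 2), followed by control Treg cells at 0.283% ± 0.0272 (n = 4) and TGFβ plus retinoic acid at 0.271% ± 0.0239 (n = 2). Tet2/3-deficient Treg cells lay at 0.218% ± 0.00751 (n = 4), TGFβ iTreg cells at 0.205% ± 0.00917 (n = 2) and Th0 cells lowest at 0.148% ± 0.00944 (n = 2). The 2 naive libraries were above every other library, and the 2 Th0 libraries below every other. In the second table, day 6 iTreg cells had 0.208% ± 0.00592 and restimulated Foxp3- cells 0.244% ± 0.00494 (n = 3 each), with no overlap. These are bulk samples, so fewer cells of a type and less RNA per cell cannot be told apart.

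**Figure D1:**
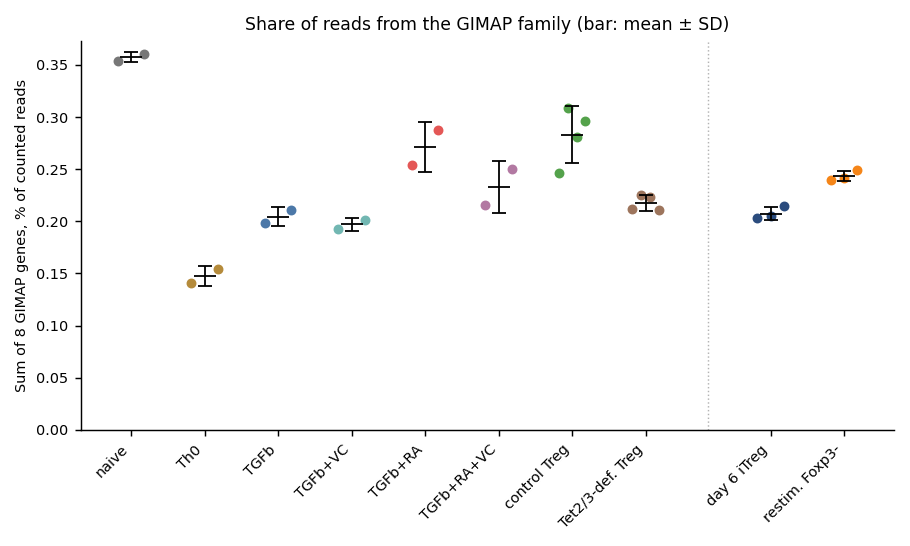
Sum of the 8 GIMAP genes as a percentage of counted reads in each library (points), with group mean and SD (bars); the dotted line separates the second table. The naive libraries lie highest, around 0.357%, and the Th0 libraries lowest, around 0.148%.

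The members differed widely in level. On the FPKM scale, Gimap4, which affects the pace of T cell death, and Gimap3, an organelle membrane protein, were the 2 highest in every group, with 25.3% to 40.4% and 21.6% to 27.3% of the family sum. Gimap5, which sits on lysosomes and whose loss leads to T lymphopenia in rats and mice, was among the lowest, with 2.22% to 4.2%. The order of the groups was not the same for all members. Gimap3, Gimap4, Gimap6 and Gimap8 had their highest mean in naive cells, though for Gimap4 the naive range of 462 to 475 FPKM lay within that of TGFβ plus retinoic acid, 427 to 492. Control Treg cells had the highest mean for Gimap1, Gimap5 and Gimap7, with the Gimap7 range meeting that of TGFβ plus retinoic acid, and TGFβ plus retinoic acid headed it for Gimap9. Th0 cells were lowest for 5 members (Gimap1, Gimap3, Gimap5, Gimap6 and Gimap8) and also for Gimap9, whose Th0 range met that of Tet2/3-deficient Treg cells. The lowest group was Tet2/3-deficient Treg cells for Gimap4, and TGFβ plus vitamin C for Gimap7, where the ranges of that group and of Th0 cells overlapped.

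**Figure D2:**
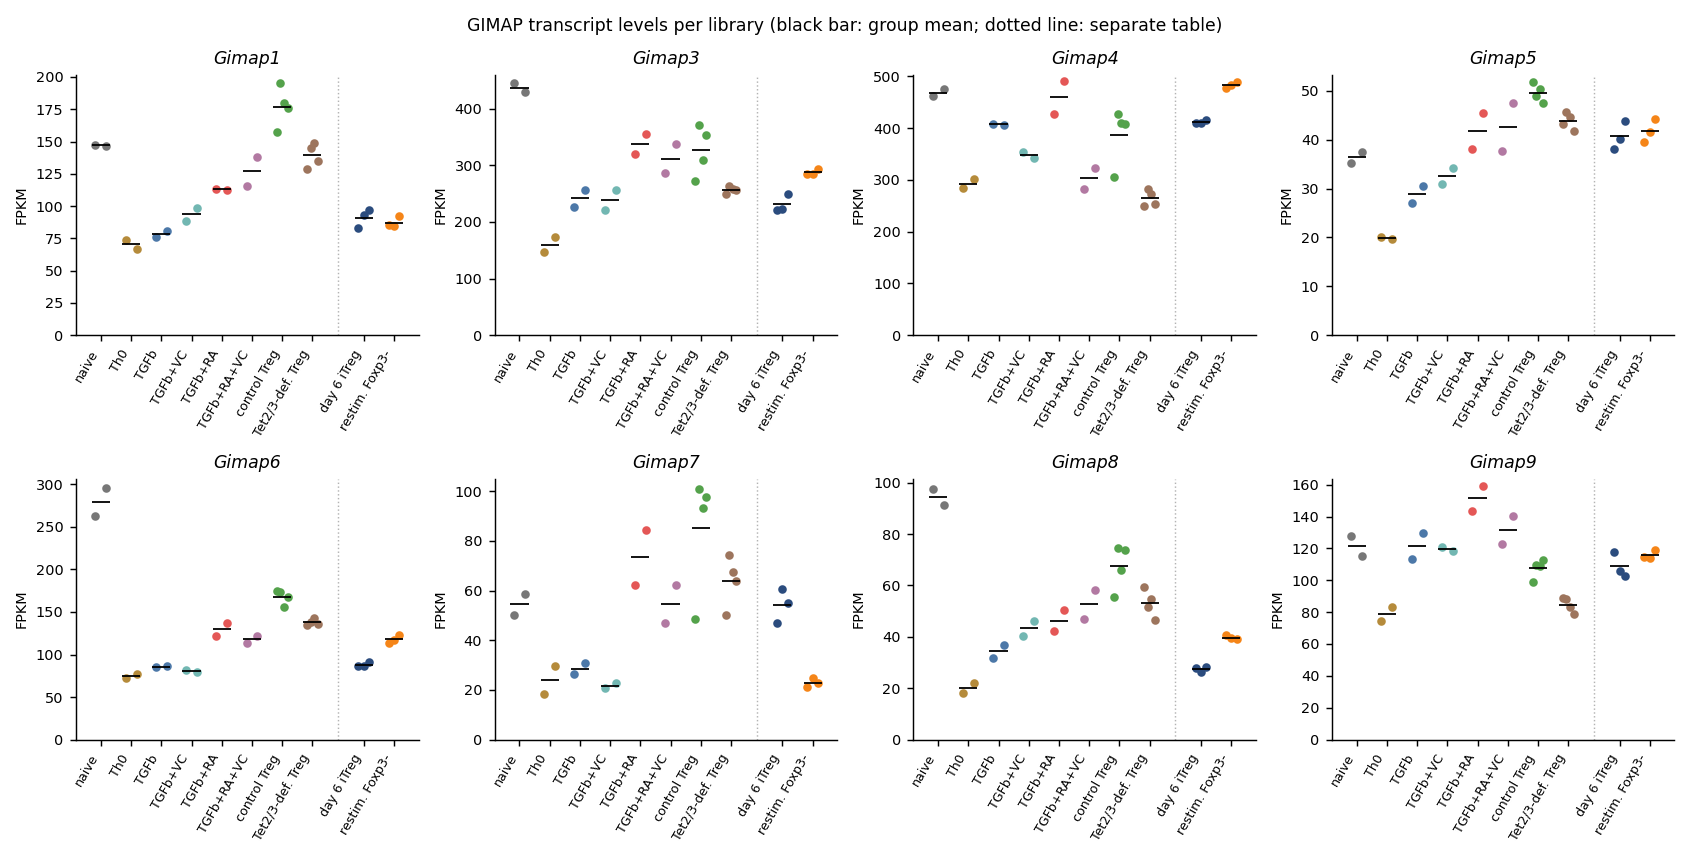
FPKM of each member in every library (points) with the group mean (black bar), 1 panel per gene, each vertical axis from 0; the dotted line separates the second table. Gimap6 and Gimap8 stand highest in naive cells, and Gimap7 is lower in the restimulated Foxp3- cells than in the day 6 iTreg cells.

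Activation of naive cells without TGFβ was accompanied by a fall of all members. Against naive cells, Th0 cells had lower levels of all 8 GIMAP genes, by 1.57-fold (Gimap9) to 4.82-fold (Gimap8). Differences were tested with edgeR's quasi-likelihood test, and p-values were adjusted by the Benjamini-Hochberg method over all genes tested, with a threshold of 0.05. All 8 members were called lower, in a comparison where 72% of 11287 genes were called and 36.4% were called lower. The members' median log2 fold change was -1.15, beside -0.01 over all genes. Naive cells were sorted directly and Th0 cells were cultured, so time in culture cannot be told apart from activation.

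Gimap8, a large member with several G domains in a row, stood at 97.5 and 91.4 FPKM in the naive libraries and at 18 and 22.1 in the Th0 libraries. Its log2 fold change was -2.27 ± 0.13 (SE, adjusted p = 5.59e-10). Gimap6, which binds the autophagy protein GABARAPL2, was at 263 and 295 FPKM in naive and at 72 and 77.3 in Th0 libraries (-1.93 ± 0.09, adjusted p = 2.52e-11). Neither gene's groups came near each other. Gimap3 fell by 1.48 ± 0.10 on the log2 scale, from 445 and 429 FPKM to 147 and 173 (adjusted p = 5.32e-09). Gimap7, a member that pairs with other GIMAP proteins and stimulates their GTPase activity, fell by 1.21 ± 0.21 from 50.3 and 58.7 FPKM to 18.4 and 29.6 (adjusted p = 0.000273). The Th0 libraries differed most from each other in Gimap7, yet both lay below both naive ones. Gimap1, needed for the survival of mature T and B cells, fell by 1.09 ± 0.09 from 148 and 146 FPKM to 73.7 and 67.1 (adjusted p = 6.36e-08). Gimap5 fell by 0.90 ± 0.12 (adjusted p = 6.83e-06), Gimap4 by 0.71 ± 0.08 (adjusted p = 1.47e-06) and Gimap9 by 0.65 ± 0.10 (adjusted p = 3.08e-05).

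Other genes of resting T cells moved the same way. Of a list of 20 quiescence and naive genes, 19 fell and 1 rose, with a median log2 fold change of -1.46. The largest falls were in Il7r (-4.69 ± 0.20), the receptor for the survival cytokine IL-7, and Btg1 (-3.47 ± 0.10), an antiproliferative gene. Mki67, a proliferation marker, averaged 0.758 FPKM in naive and 99.2 in Th0 cells. Its part in the result was not tested. Of the BCL2 family, whose members set the threshold for cell death and some of which bind GIMAP proteins, 5 of 12 rose and 3 fell: Pmaip1 (2.90 ± 0.28) and Bcl2l1 (2.15 ± 0.10) led the rises and Bmf (-2.07 ± 0.35) the falls. Of 13 autophagy and lysosome genes, 3 rose, led by Gabarapl1 (3.42 ± 0.13), and 5 fell, led by Atg12 (-1.10 ± 0.13).

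With TGFβ in the culture, 5 of the 8 members stood above their Th0 level. Gimap3, Gimap4, Gimap5, Gimap8 and Gimap9 rose and none fell, where 26.1% of genes were called and 14.5% were called higher. The rises were small beside the fall on activation: the members' median log2 fold change was 0.47, beside 0.00 over all genes. Gimap8 was at 31.9 and 36.8 FPKM in TGFβ iTreg libraries (0.75 ± 0.13, adjusted p = 0.00069), still far below the naive libraries. Gimap9 was at 113 and 130 FPKM against 74.4 and 83.5 in Th0 cells (0.59 ± 0.10, adjusted p = 0.000638), and the 2 TGFβ libraries spanned the naive range of 115 to 128. Gimap3 rose by 0.56 ± 0.10 (adjusted p = 0.00106) and Gimap4 by 0.44 ± 0.08 (adjusted p = 0.00113). Gimap5 rose by 0.50 ± 0.12 (adjusted p = 0.00714), a call that was lost without TGFβ replicate 2 (adjusted p = 0.0662) or without Th0 replicate 2 (adjusted p = 0.0521). Gimap1 (0.13 ± 0.10, adjusted p = 0.337), Gimap6 (0.17 ± 0.08, adjusted p = 0.150) and Gimap7 (0.22 ± 0.22, adjusted p = 0.493) did not pass. Of the quiescence and naive genes, 8 of 20 rose, among them Il7r (1.46 ± 0.20), and 3 fell, among them Tcf7 (-1.41 ± 0.12), a transcription factor of naive and memory T cells.

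Retinoic acid, a vitamin A metabolite that acts through nuclear receptors and is used with TGFβ to make iTreg cells, was accompanied by higher GIMAP levels. Added to TGFβ, it was followed by a rise of 7 of 8 members and a fall of none, in a comparison where 16.5% of genes were called and 7.19% were called higher. The members' median log2 fold change was 0.49, beside 0.02 over all genes. Gimap7 rose most, by 2.55-fold.

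Gimap7 was at 26.4 and 30.7 FPKM with TGFβ and at 62.3 and 84.4 with retinoic acid added (1.35 ± 0.21, adjusted p = 0.00101), which put both libraries above the naive range. Gimap6 rose from 84.7 and 86.6 FPKM to 122 and 137 (0.59 ± 0.08, adjusted p = 0.000196) and stayed below naive cells. Gimap1 rose from 76.2 and 81.1 FPKM to 113 in both libraries (0.51 ± 0.09, adjusted p = 0.00174). Each of these genes kept its call under every alternative analysis and with any library left out. Gimap5 (0.52 ± 0.12, adjusted p = 0.00576) and Gimap3 (0.47 ± 0.10, adjusted p = 0.00524) also rose. Gimap5 lost its call without the second retinoic acid library (adjusted p = 0.0541), and Gimap5 and Gimap3 both lost theirs without the first TGFβ library (adjusted p = 0.0901 and 0.0930). Gimap8 (0.42 ± 0.12, adjusted p = 0.0324) and Gimap9 (0.31 ± 0.10, adjusted p = 0.0436) were close to the threshold. In the 8 alternative analyses that left out no library, Gimap9 lost its call in 6 and Gimap8 in 4. Gimap9 was lost in 10 of 12 analyses that left out a library, and its largest adjusted p there was 0.359. Gimap8 was lost without the second retinoic acid library (adjusted p = 0.202) or the first TGFβ library (adjusted p = 0.267). Gimap4 was at 408 and 406 FPKM with TGFβ and at 427 and 492 with retinoic acid (0.16 ± 0.08, adjusted p = 0.195). Leaving out the first TGFβ library brought the count of members called down to 3, and leaving out the second retinoic acid library to 4.

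The same supplement was tested in the presence of vitamin C, on other libraries. Retinoic acid added to TGFβ plus vitamin C was followed by a rise of 5 of 8 members and a fall of none, where 15.1% of genes were called and 5.81% were called higher. Gimap7 went from 20.8 and 22.7 FPKM to 46.8 and 62.1 (1.32 ± 0.21, adjusted p = 0.00131). Gimap6 went from 82.2 and 79.2 FPKM to 114 and 122 (0.54 ± 0.08, adjusted p = 0.000345), Gimap1 rose by 0.43 ± 0.09 (adjusted p = 0.00475), Gimap3 by 0.38 ± 0.10 (adjusted p = 0.0196) and Gimap5 by 0.38 ± 0.11 (adjusted p = 0.0332). Only Gimap6 and Gimap7 kept their calls without the second library that had both supplements, or without the first vitamin C library, which left 2 members called. Gimap5 also lost its call without the second vitamin C library (adjusted p = 0.0617). In the 8 alternative analyses that left out no library, Gimap3 lost its call in 2 and Gimap5 in 3. Gimap4 lay in the other direction, at 354 and 343 FPKM without and 283 and 323 with retinoic acid (-0.21 ± 0.08, adjusted p = 0.108). With the replicate block Gimap4 passed as lower (-0.21, adjusted p = 0.0443) and Gimap8 as higher (0.27, adjusted p = 0.0343).

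Retinoic acid moved other lymphocyte genes both ways. Of the quiescence and naive genes, 7 of 20 rose and 3 fell when it was added to TGFβ. Pik3ip1 (1.09 ± 0.10), an inhibitor of PI3 kinase, led the rises. Mki67 averaged 90.2 FPKM with TGFβ and 65.2 with retinoic acid added. Erythroid and platelet markers (7 genes) summed to 36.5 to 45.5 CPM (counts scaled to a common library size) with TGFβ and to 0.945 to 3.81 with retinoic acid added. Their part in the result was not tested. Atg12 was the 1 of 13 autophagy and lysosome genes that rose (0.46 ± 0.12), and none fell.

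**Figure D3:**
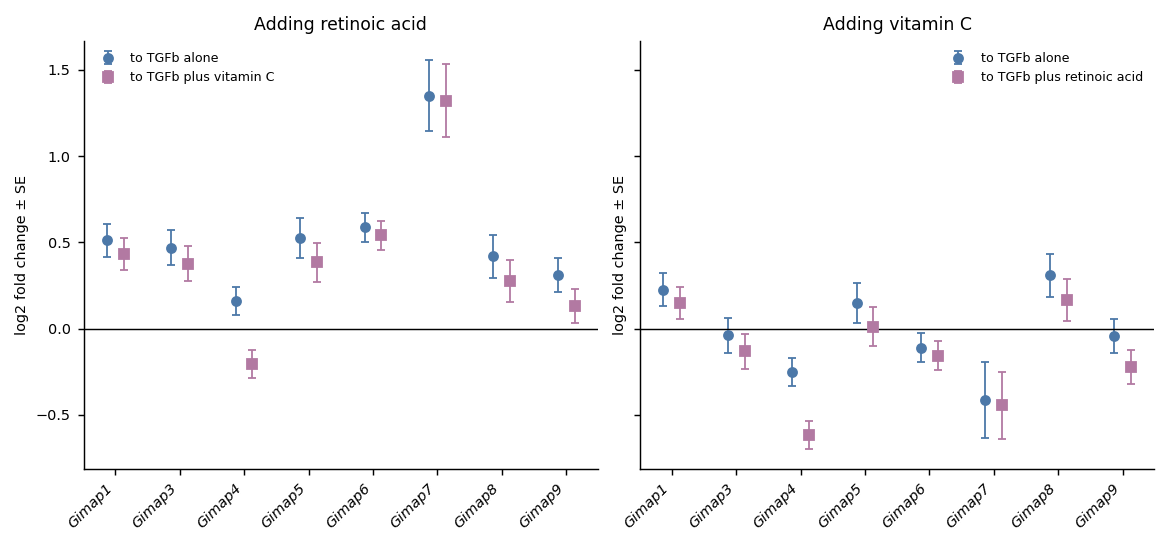
Log2 fold changes (± SE, edgeR) of each member on adding retinoic acid (left) or vitamin C (right) to TGFβ cultures, without the other supplement (circles) or with it (squares). Gimap7 shows the largest value with retinoic acid in both settings, at 1.35 and 1.32, and Gimap4 lies below 0 with vitamin C in both.

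Vitamin C was accompanied by fewer calls among the members than retinoic acid. Added to TGFβ alone, it was accompanied by a fall of 1 member, Gimap4, while 7 did not pass. In that comparison 16.8% of genes were called and 7.99% were called lower, so the share of members called, 12.5%, was not above that of all genes. Added to TGFβ plus retinoic acid, it was again accompanied by a fall of Gimap4 and of no other member, where 7.54% were called and 3.22% were called lower. With the replicate number as a block, which pairs libraries of the 4 iTreg groups, 3 members were called for vitamin C added to TGFβ (Gimap4 and Gimap7 lower, Gimap8 higher) and 2 for vitamin C added to TGFβ plus retinoic acid (Gimap4 and Gimap7 lower). The median log2 fold changes over the members were -0.04 and -0.14, beside 0.00 and -0.01 over all genes.

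Gimap4 was at 408 and 406 FPKM with TGFβ and at 354 and 343 with vitamin C added (-0.25 ± 0.08, adjusted p = 0.0463). That call was at the edge: it was lost in 8 of 12 analyses that left out a library, with adjusted p up to 0.221. With retinoic acid present, the difference was plainer. Gimap4 was at 427 and 492 FPKM without and at 283 and 323 with vitamin C, which is 1.53-fold lower (-0.62 ± 0.08, adjusted p = 0.000184), and this call held under every alternative and with any library left out, at log2 fold changes of -0.71 to -0.51. The 2 libraries with both supplements were near the Th0 libraries, at 284 and 302 FPKM. Whether vitamin C acted differently on Gimap4 with and without retinoic acid was tested by the interaction term, which was -0.37 ± 0.11 (unadjusted p = 0.00573, adjusted p = 0.567). By edgeR, 0 of 8 members passed for the interaction, where 0.0177% of genes did, and Gimap4 was the 1 member with an unadjusted p under 0.05.

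The other members showed smaller or less certain differences with vitamin C. Gimap7, at 20.8 and 22.7 FPKM with vitamin C and 26.4 and 30.7 without, did not pass (-0.42 ± 0.22, adjusted p = 0.217), nor did it with retinoic acid present (-0.45 ± 0.20, adjusted p = 0.218). With the replicate block it passed in both, at adjusted p of 0.0151 and 0.00616. Gimap8 was at 40.5 and 46.1 FPKM with vitamin C and 31.9 and 36.8 without (0.31 ± 0.12, adjusted p = 0.101, and 0.0163 with the block). Gimap1 was at 88.7 and 98.5 against 76.2 and 81.1 FPKM (0.23 ± 0.09, adjusted p = 0.112). In a fit of only the TGFβ and TGFβ plus vitamin C libraries, Gimap7 and Gimap8 passed as well, at adjusted p of 0.0344 and 0.0495. The vitamin C and retinoic acid comparisons against TGFβ share the TGFβ libraries, so they are not independent of each other.

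With both supplements, 6 members were above and Gimap4 was below TGFβ alone, where 37.5% of genes were called, 18.3% higher and 19.2% lower. Gimap7 was 0.91 ± 0.21 (adjusted p = 0.00515), Gimap1 0.66 ± 0.09 (adjusted p = 7.22e-05) and Gimap8 0.58 ± 0.12 (adjusted p = 0.00189) higher on the log2 scale. Gimap4 was lower by 0.46 ± 0.08 on that scale (adjusted p = 0.000479). Without the second library with both supplements, or without the first TGFβ library, Gimap7 lost its call (adjusted p = 0.0523 and 0.0617), as did Gimap3 (adjusted p = 0.180 and 0.160). CD8 T cell markers (5 genes) summed to 39.2 to 42.4 CPM with both supplements, 13.4 to 15.6 with TGFβ alone, 23.3 to 28.2 with vitamin C added and 11.2 to 12.0 with retinoic acid added, and their part in these results was not tested. Gimap9, at 123 and 140 FPKM with both and 113 and 130 without, did not pass (0.09 ± 0.10, adjusted p = 0.521).

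Treg cells taken from mice had more GIMAP transcript than iTreg cells made with TGFβ. In control Treg cells 6 of 8 members were higher than in TGFβ iTreg cells and none lower, where 61.4% of genes were called and 32.3% were called higher. Gimap7 was at 48.7, 101, 93.4 and 97.9 FPKM in the 4 control libraries, against 26.4 and 30.7 in TGFβ iTreg cells (1.54 ± 0.35, adjusted p = 0.0134). Gimap1 was at 157 to 195 FPKM against 76.2 and 81.1 (1.13 ± 0.10, adjusted p = 8.33e-06). Gimap6 and Gimap8 were each higher by 0.93 (SE 0.08 and 0.13, adjusted p = 5.92e-06 and 0.000168), Gimap5 by 0.74 ± 0.09 (adjusted p = 5.37e-05) and Gimap3 by 0.39 ± 0.13 (adjusted p = 0.0206). Gimap4 (-0.12 ± 0.13, adjusted p = 0.451) and Gimap9 (-0.22 ± 0.09, adjusted p = 0.0581) did not pass. Gimap9 passed as lower with RLE factors (-0.23, adjusted p = 0.0477) and with all 20 libraries in the fit (-0.20, adjusted p = 0.0379). Gimap3 and Gimap7 each lost their call when either TGFβ library was left out, with adjusted p from 0.0526 to 0.169.

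Set against naive cells, control Treg cells differed from member to member. Gimap6 was 0.87 ± 0.08 (adjusted p = 6.16e-06), Gimap8 0.62 ± 0.12 (adjusted p = 0.00132), Gimap3 0.56 ± 0.12 (adjusted p = 0.00269), Gimap4 0.41 ± 0.13 (adjusted p = 0.0209) and Gimap9 0.32 ± 0.09 (adjusted p = 0.0125) lower on the log2 scale. Gimap5 was higher, at 47.5 to 51.7 FPKM against 35.2 and 37.5 (0.31 ± 0.09, adjusted p = 0.0105). In all, 5 members were lower, 1 higher and 2 not called, where 54.9% of genes were called, 28.6% higher and 26.3% lower. Gimap1 was at 0.13 ± 0.10 (adjusted p = 0.293) and Gimap7 at 0.51 ± 0.33 (adjusted p = 0.246). Without control library S1, which was lowest in Gimap7, that gene passed at 0.71 (adjusted p = 6.96e-05). Without naive replicate 1 only 3 members were called: Gimap4, Gimap5 and Gimap9 lost their calls, at adjusted p of 0.1, 0.0938 and 0.170, and Gimap4 also lost its call without naive replicate 2 (adjusted p = 0.114). A test on log2 FPKM, which has no composition factor, moved the median of all genes by 0.10 and the share of calls that were higher from 52.1% to 65.6%. Under it Gimap1 passed as higher, and Gimap4 and Gimap9 did not pass. B cell markers (9 genes) summed to 47.3 to 116 CPM in control Treg, 2.12 to 3.01 in naive and 3.05 to 3.47 in TGFβ iTreg libraries, and all 9 were higher in control Treg than in naive cells. Myeloid and dendritic markers (11 genes) summed to 56.4 to 94.3, 8.40 to 9.87 and 8.01 to 10.7 CPM in the same order, with Csf1r at 0 in naive and TGFβ iTreg libraries. Erythroid and platelet markers (7 genes) summed to 74.2 to 196, 0.604 to 0.726 and 36.5 to 45.5 CPM, and all 4 tested were higher in control Treg than in naive cells. NK and innate lymphoid markers (7 genes) summed to 12.5 to 16.8, 14.2 to 19.6 and 0.858 to 1.00 CPM. Of the 4 tested, 2 were higher and 2 lower in control Treg than in naive cells, and all 4 were higher than in TGFβ iTreg cells. Their part in these differences was not tested. The Treg and culture libraries differ in mouse genotype and age and in sorting as well as in cell type, which cannot be told apart.

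Treg cells from the mice with floxed Tet2 and Tet3 and CD4-Cre had lower levels of most GIMAP genes. In Tet2/3-deficient Treg cells 7 of 8 members fell and none rose, in a comparison where 32.5% of 11679 genes were called and 15.8% were called lower. The members' median log2 fold change was -0.39, beside 0.00 over all genes. The falls were modest, from 1.16-fold for Gimap5 to 1.5-fold for Gimap4.

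Gimap4 stood at 306, 427, 410 and 407 FPKM in the 4 controls, S1 to S4, and at 250, 282, 272 and 254 in the 4 deficient libraries, S5 to S8 (-0.59 ± 0.10, adjusted p = 0.000967). All 4 deficient libraries lay below all 4 controls, and the lowest control was S1. Gimap6 was at 135, 138, 143 and 135 FPKM in deficient libraries against 175, 174, 156 and 168 in controls (-0.32 ± 0.05, adjusted p = 0.000967). For Gimap6 the groups did not overlap and S1 was the highest control. Gimap9 was at 88.7, 88.1, 83.1 and 78.6 FPKM against 98.7, 109, 109 and 113 (-0.39 ± 0.06, adjusted p = 0.00101). Gimap1 was at 129, 145, 149 and 135 FPKM against 157, 195, 179 and 176 (-0.38 ± 0.08, adjusted p = 0.00268), also without overlap. Gimap3 fell by 0.39 ± 0.08 (adjusted p = 0.00505) and Gimap5 by 0.22 ± 0.06 (adjusted p = 0.0144), again with all deficient libraries below all controls. Gimap8 fell by 0.39 ± 0.10 (adjusted p = 0.0119), although its groups overlapped, since control S1 at 55.6 FPKM lay below the deficient library S5 at 59.5.

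Gimap7 did not pass in this comparison. The controls had 48.7, 101, 93.4 and 97.9 FPKM and the deficient libraries 50.3, 74.1, 67.5 and 63.7 (-0.45 ± 0.24, adjusted p = 0.188). Control S1 was below all deficient libraries, and the other 3 controls were above them. Without S1, Gimap7 was at -0.65 ± 0.11 (adjusted p = 0.00148) and all 8 members were called. The other 7 kept their calls with any library left out, S1 included, and under every alternative.

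**Figure D4:**
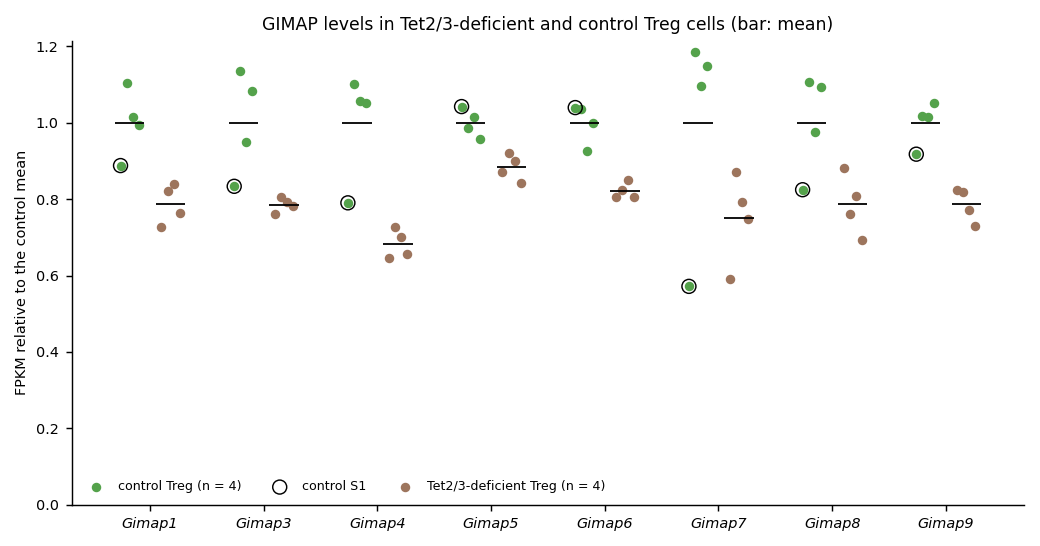
FPKM of each member in control (green) and Tet2/3-deficient (brown) Treg libraries, divided by the mean of the 4 controls; bars are group means and open circles mark control S1. The deficient means lie below 1 for all 8 members. S1 is the lowest control in every member but Gimap5 and Gimap6, where it is the highest.

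Other lists in the same comparison give the setting. Of the 20 quiescence and naive genes 8 fell, led by S1pr1 (-0.75 ± 0.09), a lymphocyte egress receptor, and Klf3 (-0.65 ± 0.10), and 1 rose. In the BCL2 family 3 of 12 rose and none fell. The largest rises were in Bcl2a1d (0.88 ± 0.11), a survival gene with near-identical copies whose reads may be split, and in Bcl2l11 (0.81 ± 0.06), which encodes the death-promoting protein BIM. Among 13 autophagy and lysosome genes 4 fell and none rose, led by Sqstm1 (-0.33 ± 0.06). Among 11 other immune GTPases measured, 1 rose and none fell. The 10 T cell identity genes summed to 5644 to 5784 CPM in deficient and 6432 to 6853 in control libraries, with 6 of 10 lower.

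Markers of other cells also differed between these groups. NK and innate lymphoid markers (7 genes) summed to 37.9 to 59.5 CPM in the deficient and 12.5 to 16.8 in the control libraries, and 3 of 4 tested were higher; the defining gene Ncr1 averaged 0.0203 and 0.0819 FPKM. Myeloid and dendritic markers (11 genes) summed to 66.1 to 191 CPM against 56.4 to 94.3, with 1 of 9 higher. B cell markers (9 genes) summed to 50 to 68.7 CPM against 47.3 to 116, with none of 9 called. CD8 T cell markers (5 genes) summed to 7.92 to 10.9 CPM against 26.6 to 31.9, with 2 of 3 tested lower and 1 higher. Mki67 averaged 10.5 FPKM in deficient and 4.91 in control cells. Their part in the fall of the GIMAP genes was not tested. In this comparison a test on log2 FPKM moved the share of calls that were higher from 51.4% to 62.3%, and the 7 members kept their calls under it.

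Against day 6 iTreg cells, the restimulated Foxp3- cells had less Gimap7 and more Gimap3, Gimap4, Gimap6 and Gimap8. These were 4 members higher, 1 lower and 3 not called, where 68.8% of 11252 genes were called, 33.6% higher and 35.2% lower, so the share of members called, 62.5%, was not above that of all genes. The members' median log2 fold change was 0.08, beside -0.01 over all genes. Gimap7 was at 46.9, 60.8 and 54.8 FPKM in day 6 iTreg cells and at 21.0, 24.9 and 23.0 in the restimulated cells, a 2.49-fold fall (-1.32 ± 0.10, adjusted p = 1.81e-07). In the first table Gimap7 averaged 28.5 FPKM in TGFβ iTreg cells, below the 54.2 of day 6 iTreg cells in the second. The restimulated range lay below the first table's TGFβ range of 26.4 to 30.7 and within its Th0 range of 18.4 to 29.6. The tables were not pooled, and their mice differ in age.

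Gimap8 was at 27.9, 26.5 and 28.2 FPKM in day 6 iTreg cells and at 40.5, 39.3 and 39.0 in the restimulated cells (0.45 ± 0.05, adjusted p = 2.78e-06). Gimap6 was at 86.2, 86.5 and 91.2 against 113, 118 and 123 FPKM (0.35 ± 0.05, adjusted p = 4.27e-05). Both rose without overlap. Gimap3 rose by 0.24 ± 0.06 (adjusted p = 0.00214), and Gimap4 went from 410, 411 and 415 FPKM to 478, 483 and 490 (0.15 ± 0.05, adjusted p = 0.0150). Gimap1 (-0.14 ± 0.07, adjusted p = 0.0844), Gimap5 (-0.04 ± 0.07, adjusted p = 0.626) and Gimap9 (0.02 ± 0.06, adjusted p = 0.813) did not pass, and their groups overlapped. Without day 6 replicate 1, Gimap1 passed as lower (-0.20, adjusted p = 0.00626). With the replicate block it also passed as lower (-0.14, adjusted p = 0.0370). The 5 calls held with any library left out and under every alternative.

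Of the quiescence and naive genes, 16 of 20 rose and 2 fell in the restimulated cells, with Tcf7 (2.12 ± 0.07) leading the rises. Among the BCL2 family 7 of 12 rose, led by Bcl2l11 (2.29 ± 0.07), and 3 fell. Of 13 autophagy and lysosome genes, 10 rose, led by Gabarapl1 (0.73 ± 0.05), and none fell. NK and innate lymphoid markers summed to 20.8 to 24.2 CPM in restimulated and 0.886 to 2.00 in day 6 iTreg libraries, with Ncr1 at 0 in all of them. Erythroid and platelet markers summed to 0.252 to 0.354 and 37.1 to 64.2 CPM in the same order. Mki67 averaged 19.3 FPKM in restimulated and 45.9 in day 6 iTreg cells. Their part in the result was not tested. The groups also differ in the sort itself and in time in culture, which cannot be told apart from restimulation.

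**Figure D5:**
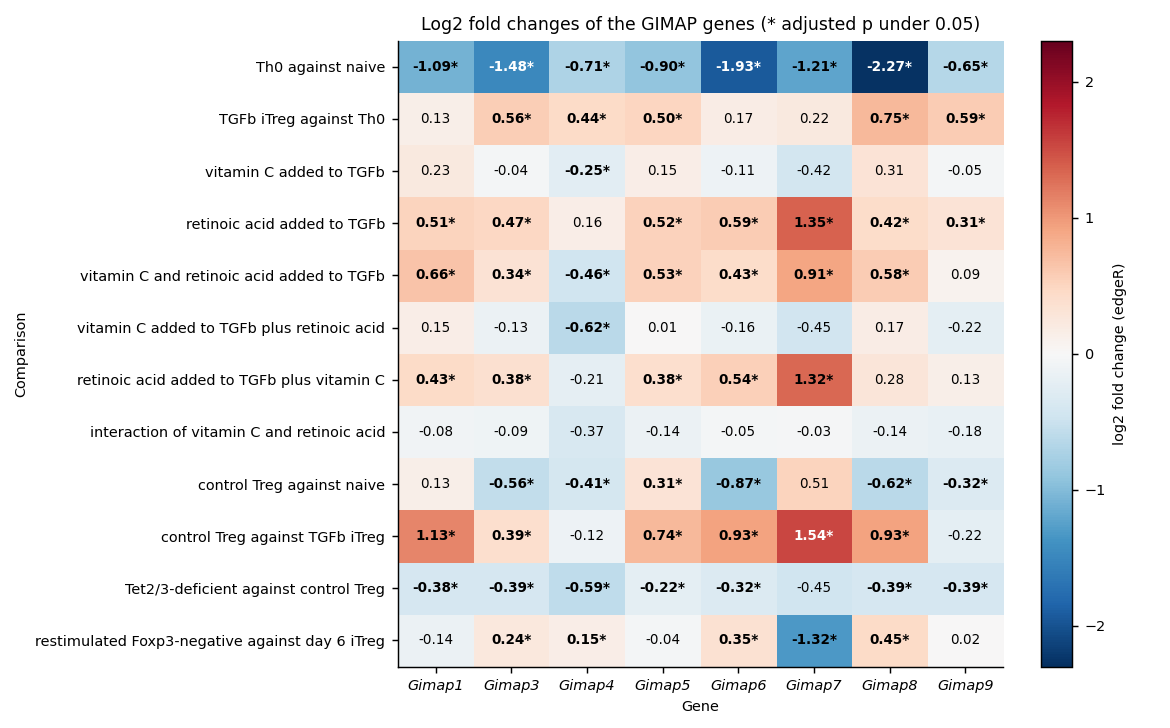
Log2 fold changes (edgeR, colour and number) of the 8 members (columns) in all 12 comparisons (rows); an asterisk and bold type mark an adjusted p under 0.05. The row for Th0 against naive is negative throughout, down to -2.27 for Gimap8, and Gimap7 shows the largest rises with retinoic acid and the fall of -1.32 on restimulation.

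The members differed in how they followed the family mean across the 8 groups of the first table. The correlation of a member's group means (log2 CPM) with the mean of all members was 0.96 for Gimap3, 0.94 for Gimap8, 0.92 for Gimap6, 0.91 for Gimap1, 0.86 for Gimap5 and 0.85 for Gimap7, but 0.53 for Gimap4 and 0.52 for Gimap9. Each member is part of the mean it was set against. Gimap4 and Gimap9 correlated with each other at 0.74, with Gimap3 at 0.66 and 0.67, and with Gimap1 at 0.19 and 0.18. These are descriptions over 8 points that share libraries and scaling. The group means of Gimap8 spanned 2.31 log2 units, those of Gimap6 1.97 and those of Gimap7 1.90, against 1.00 for Gimap4 and 0.89 for Gimap9.

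Among 6679 other genes whose group means spanned at least 1 log2 unit, those most like the family mean over the 8 groups were Pacs1 (Pearson r = 0.99), Chrnb2, Xpc, Atp8a1 and Leng9 (0.97 each). Pacs1 encodes a sorting protein of the trans-Golgi network, Atp8a1 a phospholipid flippase and Xpc a DNA damage sensor. Over the 20 separate libraries the leading genes were Zfp943, Atg12, Cd84, Atp8a1 and Xpc, with r from 0.92 to 0.93. Atp8a1 and Xpc were in both lists.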

How the data were processed

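Bulk RNA-seq of sorted or cultured mouse CD4+ T cells was measured in 26 libraries. Per the labels' protocols, RNA was extracted with a column kit and libraries were made with a stranded mRNA kit. The submitters' processing notes name build mm9 and, among the tools, TopHat2 2.1.1, Trim Galore 0.4.2, Picard 2.5.0 and edgeR 3.26.6. The counting program, annotation and strand setting are not given in the sources used here. The authors deposited raw counts per gene and FPKM values in the same tables. The deposited FPKM values equal count divided by library total and exon length, so they carry no composition factor. A deposited table scaled to library size alone was not used.

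The 8 members were matched by symbol, and 92 of 21761 rows had no symbol. Counts were tested with edgeR 4.0.16 (quasi-likelihood, robust, TMM factors, filterByExpr with a minimum count of 10), and p-values were adjusted over all genes tested by the Benjamini-Hochberg method at 0.05. The standard error is the log2 fold change divided by the root of the F statistic. The 6 naive and culture groups (n = 2 each) shared 1 fit, which pools their spread. Each other comparison used its own libraries, and the tables were not pooled. Levels are deposited FPKM with the SD over libraries. Ex vivo Treg columns could be tied to a group but not to a single sample, and are named S1 to S8 after the column headers.

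Results were recomputed with each library left out, with a replicate block, with other sets of libraries in the fit, without the count filter, with RLE factors, with DESeq2 1.42.0, and with limma 3.58.1 on log2(FPKM + 1) and log2(FPKM + 0.1). All members are named. From other lists at most the 4 called genes of largest change were named per comparison, beside defining markers. The 5 genes most like the family were those with the highest Pearson r with its mean log2 CPM (prior count 2). Replicate numbers come from the sample titles. Libraries of the 4 iTreg groups with the same number deviated together from their group means. Their r was 0.222 to 0.418, over 0.1 in 12 of 12 pairs, so blocked values are given where they change a call. With 2 libraries per group, pairs of second replicates repeat the values of the first, so the 12 pairs are not independent. Members and lists were chosen with earlier results of these data known. The test was tried on simulated counts: for vitamin C added to TGFβ (11056 genes) it recovered 73.1% of 1.5-fold changes, and 6.91% of its calls were false. For Tet2/3-deficient against control Treg cells (11585 genes) these were 71.6% and 5.11%, and for restimulated against day 6 cells (11149 genes) 83.6% and 8%. The simulations changed only a small share of genes, none of low count, while far more were called in the data. These rates therefore need not hold for the data. Promoters are from RefSeq on GRCm38.p6, a build other than that of the counts, and no count was read by coordinates.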

Additional observations from a re-analysis of the deposited data

Results flagged for a closer look

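Control Treg library S1 stood apart from the other 3 controls in 2 members. Gimap4 was at 306 FPKM in S1, with the nearest control at 407, and Gimap7 was at 48.7 FPKM in S1, with the nearest at 93.4. Each gap exceeded Dixon's 95% critical value for 4 samples. S1 was also the lowest control in Gimap1, Gimap3, Gimap8, Gimap9 and the family share (0.246%, nearest 0.281%), with gaps within that value. Of 18 sets of 4 libraries tested, the 8 members and the family share in both ex vivo groups, 2 exceeded it, where chance gives about 1 in 20. Without S1, Gimap7 was lower in Tet2/3-deficient Treg cells (log2 fold change -0.65, edgeR adjusted p = 0.00148), and Gimap4 kept its call.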

How the results depend on the processing

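No called value of a member changed sign under any alternative. With a library left out, 928 member results kept their side of the threshold, 44 lost their call and 4 gained one; under the other alternatives 661 kept it, 23 lost it and 12 gained it. The count of members called ranged, with a library left out, from 8 to 8 for Th0 against naive, 4 to 5 for TGFβ against Th0, 0 to 1 for vitamin C added to TGFβ, 3 to 7 for retinoic acid added to TGFβ, 5 to 7 for both supplements, 1 to 1 for vitamin C added to TGFβ plus retinoic acid, 2 to 6 for retinoic acid added to TGFβ plus vitamin C, 0 to 0 for the interaction, 3 to 7 for control Treg against naive, 4 to 6 for control Treg against TGFβ iTreg, 7 to 8 for Tet2/3-deficient against control, and 5 to 6 for restimulated against day 6 cells. Where a group was left with 1 library, that library was assumed to vary like the other groups. Retinoic acid added to TGFβ plus vitamin C gave 3 members by limma on log2(FPKM + 0.1). Vitamin C added to TGFβ gave 0 members with all 20 libraries in the fit and 0 by limma with either pseudocount, and 3 with only the libraries of both groups; the cause was not tested.

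With the replicate number as a block, vitamin C added to TGFβ gave 3 members, vitamin C added to TGFβ plus retinoic acid gave 2, and the other blocked comparisons stayed within 1.5 times their main count, with 8 for Th0 against naive, 5 for TGFβ against Th0, 7 for retinoic acid added to TGFβ, 7 for it added with vitamin C present, 7 for both supplements, 0 for the interaction and 6 for restimulated against day 6 cells. Beside the calls given for the iTreg groups, the block changed 1 other member's call, Gimap1 in restimulated against day 6 cells (-0.14, adjusted p = 0.0370). Same-numbered pairs that include a naive or Th0 library correlated weakly, at 0.0133 to 0.0898. In the restimulation table same-numbered pairs correlated at 0.0778 to 0.197, and pairs of different number at -0.156 to 0.0726. Whether these libraries are paired is not stated in the labels, so values without the block are given as the main result there. No paired analysis was possible for ex vivo Treg cells because their columns carry no sample number. On simulated counts with few genes changed, 73.1% of 1.5-fold changes were recovered for vitamin C added to TGFβ. The differences of all 8 members there were smaller than 1.5-fold.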

Other observations

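Other immune GTPases, the guanylate-binding proteins and interferon-induced GTPases, were also lower after activation. All 11 measured fell in Th0 against naive cells, where 72% of all genes tested were called and 36.4% were called lower. Iigp1 (log2 fold change -4.10 ± 0.58) and Gbp9 (-3.94 ± 0.17) led these falls. Vitamin C added to TGFβ was accompanied by a rise of 6 of 11 and a fall of none, where 16.8% of all genes were called. Gbp3 (1.45 ± 0.14), Gbp5 (1.35 ± 0.19) and Gbp2 (1.12 ± 0.16) were among those that rose. In the same comparison 1 of 8 GIMAP genes fell and none rose. In Tet2/3-deficient Treg cells, Gbp2 was the 1 of 11 that rose (0.64 ± 0.18) and none fell, where 32.5% of all genes were called. In control Treg cells all 11 were higher than in TGFβ iTreg cells, where 61.4% of all genes were called and 32.3% were called higher.

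The genes next to the GIMAP cluster had values of their own. Tmem176a and Tmem176b, membrane proteins encoded beside Gimap3, rose in TGFβ iTreg against Th0 cells by 2.41 ± 0.18 and 2.21 ± 0.19 on the log2 scale. Tmem176a averaged 5.10 FPKM in Th0, 27.7 in TGFβ iTreg and 2.75 in control Treg cells. In restimulated Foxp3- against day 6 iTreg cells all 6 flanking genes tested fell, with Tmem176b at -1.36 ± 0.07. In that comparison 68.8% of all genes were called and 35.2% were called lower.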
